A study of Mus musculus with 10 samples.

Results

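Translation initiation, elongation and release factors were taken as the known mRNAs (RefSeq NM_ transcripts) whose gene name begins with Eif1 to Eif6, Eef1, Eef2 or Gspt or is Etf1, with the values of a gene's transcripts added together. This gave 63 genes with 82 transcripts, out of 74 protein-coding genes of the mouse annotation with such names. The other 11, among them Eef1a2 and Eif2s3x, were listed in none of the 10 tables. RNA had been sequenced from mature sperm and from testes of C57BL/6 mice (C57BL/6J in the study's methods) labelled as 3 to 5 months old. Control mice received saline and cadmium mice a single intraperitoneal injection of CdCl2 at 3 mg/kg, and all were killed on day 35. The samples were 4 of control sperm, 2 of control testes, 2 of cadmium sperm and 2 of cadmium testes. Each control sperm sample was a pool of several mice and the control testes samples combined the organs of the same mice, so spread between samples is spread between pools. How the cadmium samples were pooled is not given in the sources used here. The study did not use the first control sperm sample, and it was left out of the tests here. Its values are given beside the others.

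Translation of an mRNA starts when eIF2 brings the initiator tRNA to the small ribosomal subunit. The eIF4 factors bind the cap and unwind the leader, eIF3 holds the complex together, and eIF5 and eIF5B let the large subunit join. The eEF1 factors then deliver each aminoacyl-tRNA, eEF2 moves the ribosome along the message, and Etf1 with a Gspt partner releases the finished chain. Cells slow initiation by phosphorylating eIF2 through the Eif2ak kinases or by holding Eif4e on the Eif4ebp proteins. Spermatids store many mRNAs and translate them late, and mature sperm are regarded as having largely stopped cytoplasmic translation.

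Each transcript had an expected count, an estimate of its sequenced fragments, and an FPKM, in which this count is scaled to transcript length and library size. Summed expected counts ran from 366455 to 1058017 in control sperm, from 1155491 to 1254477 in cadmium sperm and from 2606086 to 2866856 in testes. Known mRNAs held 9.14 to 13.6% of them. At these depths 3 counts in a transcript of 2 kb stood for 4.09 FPKM in the shallowest sperm pool and for 0.523 FPKM in the deepest testes sample, and such limits cover counting error only. Of 6 markers of sperm and late spermatids, Prm2, a protamine of the sperm nucleus, was at 184 to 438 FPKM in every sperm sample. Prm1 was at 0 in control sperm 3. Prm1 and Tnp1 were lower in sperm in control (edgeR, adjusted p = 0.0162 and 0.0172) and cadmium mice (edgeR, adjusted p = 0.00165 and 3.22e-07). Odf1 was lower in control sperm and Tnp2 and Akap4 in cadmium sperm (edgeR, adjusted p = 0.0472, 0.00275 and 0.00471). The 6 markers summed to 234.26 to 464.63 FPKM in sperm and 467.26 to 570.79 in testes. The 4 spermatocyte and 4 spermatogonial markers were at 0 in all control pools, and cadmium sperm 1 held Sycp3 at 3.18 FPKM. Of 5 Leydig cell markers Star was listed in control sperm 2 to 4, at 27.49 FPKM in pool 3 against 14.28 and 14.72 in control testes, while Insl3 was at 0 in every sperm sample and was lower in sperm in control and cadmium mice (edgeR, adjusted p = 0.0493 and 0.0466). The summed Leydig markers ran from 0 to 27.49 FPKM in sperm and from 15.63 to 22.16 in testes. The epithelial keratin Krt18 was higher in sperm in both (edgeR, adjusted p = 0.0497 and 0.000843), at 0 to 5.77 FPKM in control sperm, 2.53 and 2.92 in cadmium sperm and 0 to 0.26 in testes. The 4 epithelial markers summed to 4.17 to 12.97 FPKM in sperm and 5.96 to 8.86 in testes. Amhr2, of the Sertoli cell list, was higher in cadmium sperm than in cadmium testes (2.26 and 2.91 against 0.74 and 0.19 FPKM; edgeR, adjusted p = 0.0362) and at 14.82 FPKM in control sperm 1. Wt1, Gata4 and Cldn11 of the same list were at 0 in every sperm sample. The 6 Sertoli markers summed to 0 to 14.82 FPKM in sperm and 0.76 to 3.56 in testes. Crisp1, an epididymal gene, was at 2.50 and 2.31 FPKM in cadmium sperm, 0.26 and 0.81 in cadmium testes and 0 in all control pools. The other epididymal markers, Lcn5 and Defb20, were at 0 in every sperm sample and at 3.99 and 1.15 FPKM in cadmium testes 2. Cd68 (2.14 and 0.66) and Cdh1 (0.20 and 0.54) were also listed in cadmium sperm and at 0 in all control pools. The leukocyte marker Cd4 was at 1.69 and 1.04 FPKM in cadmium sperm and at 0.62 in control sperm 2. The part of such cells in the values of the factors was not tested. Insl3, Odf1 and Akap4 passed the filter of 1 FPKM in 2 samples through testes alone. Krt18, and Amhr2 in cadmium mice, passed it through sperm alone. Of all features tested between sperm and testes, 21.9% in control and 31.7% in cadmium mice were called (edgeR, adjusted p under 0.05 and more than 2-fold). In bulk samples, fewer cells of a type and less RNA per cell cannot be told apart.

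As a group, the factors took a small share of the mRNA signal in both tissues. They summed to 0.307% ± 0.032 of the FPKM of known mRNAs in control sperm 2 to 4 (SD, n = 3) and to 0.332% ± 0.016 in control testes (SD, n = 2). The sums were 0.306% ± 0.052 in cadmium sperm and 0.328% ± 0.026 in cadmium testes (SD, n = 2 each). Single samples lay between 0.269% and 0.347%, and the tissues overlapped on this scale. As a share of the counts of known mRNAs they did not, with 0.239% to 0.342% in the 6 sperm samples and 0.353% to 0.426% in the 4 testes samples. The number of factors behind that share was far smaller in sperm. Control testes listed 54 and 55 of the 63 factors and cadmium testes 50 and 52. Control sperm 1 to 4 listed 10, 31, 6 and 13, and cadmium sperm 31 and 29. The fewest were listed in the sperm pools with the fewest counts, and the factors made up 0.384 to 0.494% of all mRNA genes listed in any sample. Over the whole data set, 32 factors reached 10 counts in some sample and 31 did not. Only 3 were listed in all 10 samples, namely Eef2kmt, Eif5 and Eif6, and 19 were listed in testes alone. Of all known mRNA genes, sperm samples listed 1552 to 7829 and testes samples 11537 to 12250. The share of all mRNA genes listed in testes alone was not worked out, so these counts describe no trait of the factors.

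**Figure D1:**
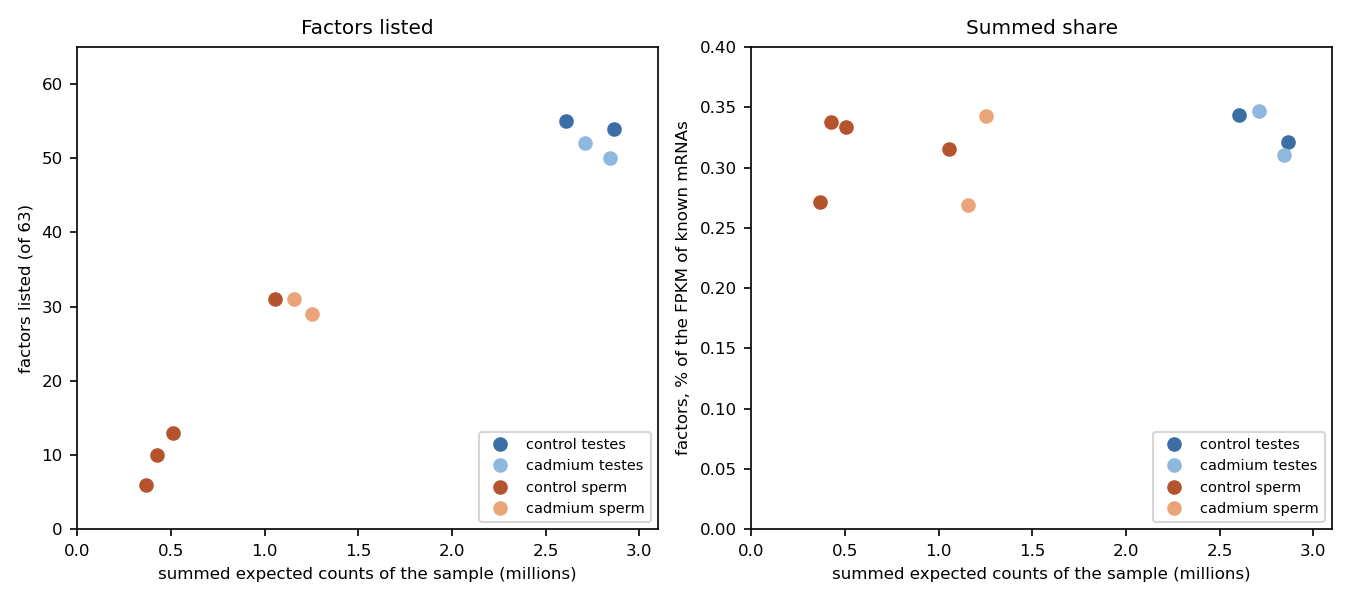
Number of translation factors listed (left, of 63) and their summed share of the FPKM of known mRNAs in percent (right), each against the summed expected counts of the sample, with 1 point per sample coloured by group. The number listed was lowest, 6, in the sperm pool with the fewest counts, while the share stayed between 0.269% and 0.347% in all samples.

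Within sperm, 2 genes carried most of the signal. Eef2kmt, which encodes the methyltransferase that modifies a lysine of eEF2, and Eif6, which keeps the large ribosomal subunit from joining too early, together made up 60.9%, 59.0%, 81.6% and 73.9% of the factors' FPKM in control sperm 1 to 4. They made up 63.1% and 57.8% in cadmium sperm, and 14.5 to 15.96% in the 4 testes samples. All factors together summed to 101.21 to 150.70 FPKM in sperm and 138.33 to 166.41 in testes, which overlap. Without these 2 genes the sums were 18.66 to 62.19 FPKM in sperm and 118.28 to 139.85 in testes. The 2 genes were set apart for leading in sperm in these same data, which favours a lower remainder there. The gap is thus no result about the other factors.

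**Figure D2:**
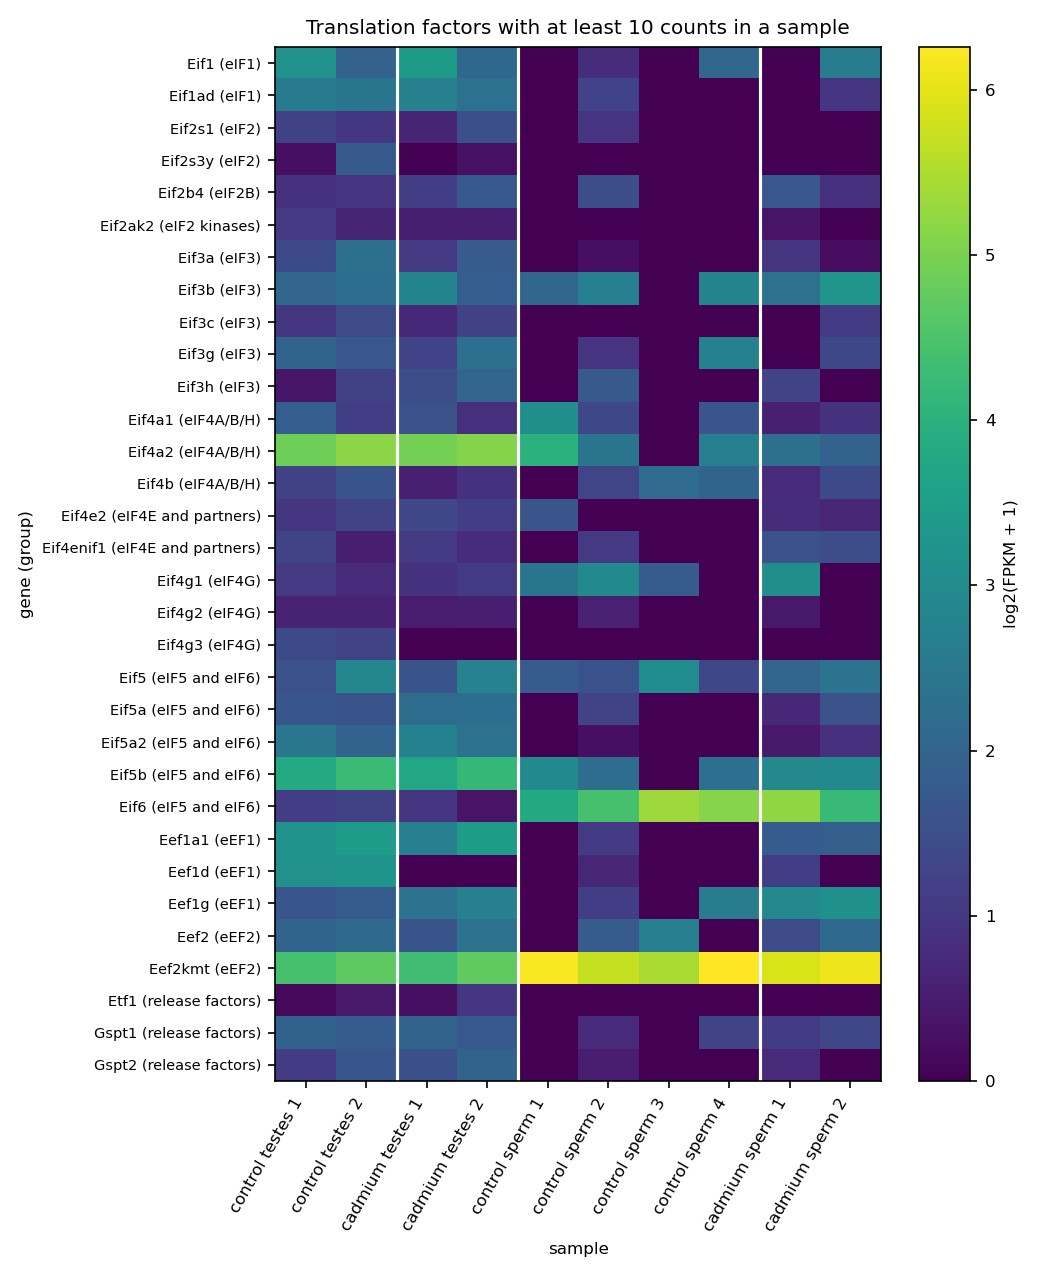
Heat map of log2(FPKM + 1) for the 32 translation factors with at least 10 counts in a sample, with 1 row per gene ordered by group and 1 column per sample. Eif4a2, Eef2kmt and Eif5b are bright in all 4 testes columns, whereas Eef2kmt and Eif6 are the bright rows of the 6 sperm columns.

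Eef2kmt was at 51.47, 42.97 and 75.56 FPKM in control sperm 2 to 4 and at 72.87 in control sperm 1. It was at 20.74 and 25.24 in control testes, at 58.97 and 67.60 in cadmium sperm and at 19.08 and 25.51 in cadmium testes. Every sperm sample was above every testes sample. Among the mRNA genes listed in a sample, Eef2kmt ranked 58th to 128th by FPKM in sperm and 263rd to 355th in testes. Its gene (GRCm38, chr16:5244155-5255956) overlaps the end of Alg1 by 755 bases in the annotation, and how the counting treated strand is not given in the sources used here, so reads of that stretch could belong to either gene. Alg1 was at 1.64, 0 and 6.84 FPKM in control sperm 2 to 4 and at 10.96 and 13.21 in control testes, the opposite order.

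Eif6 (chr2:155819837-155826925) was at 20.68, 39.58 and 33.69 FPKM in control sperm 2 to 4 and at 12.97 in control sperm 1. In control testes it was at 1.20 and 1.32, in cadmium sperm at 36.07 and 17.46, and in cadmium testes at 0.97 and 0.25. The sperm samples were again all above the testes samples, here by a wide gap. The testes values rest on 1 to 5 counts each and the sperm values on 8 to 61.

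Testes were led by other members. Eif4a2, an RNA helicase of the cap-binding complex, was highest at 28.33 and 34.91 FPKM in control testes, followed by Eef2kmt and by Eif5b, the GTPase of subunit joining, at 13.20 and 18.26. Eef1a1, the main tRNA carrier of elongation, came next at 8.33 and 9.90, and Eef1d, a part of the exchange factor that recharges eEF1A, at 7.91 and 8.45. Eif1, Eif1ad, Eif5, Eif5a2 and Eif3b had means of 3.51 to 5.42 FPKM. Each of these means rests on 2 samples, and Eif1 (7.93 and 2.92) and Eif5 (1.94 and 6.27) spread so far that their order among the neighbours cannot be read.

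The factors best known as control points of initiation were scarce. Of the eIF2 subunits, Eif2s1 (alpha) was at 1.34 and 0.99 FPKM in control testes and Eif2s2 (beta) at 0.27 and 0, while Eif2s3y, the Y-linked gamma subunit, was at 0.20 and 2.44. The kinase Eif2ak2 was at 1.06 and 0.58 and Eif2ak3 at 0.16 and 0.09. Eif2ak1 and Eif2ak4 were each listed in 1 control testes sample and nowhere else, at 0.01 and 0.07 FPKM. All 4 kinases were at 0 in the 4 control sperm pools. The cap-binding protein Eif4e was at 0.21 and 0.23 in control testes and its relative Eif4e2 at 0.97 and 1.42. Eif4ebp1 and Eif4ebp3 were each listed in 1 control testes sample, at 0.82 and 1.74. Eif4e1b was at 0.20 and 0 and Eif4e3 at 0 in both.

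Paralogous factors differed in their level in testes. Eif4a2 had a mean of 31.6 ± 4.65 FPKM and Eif4a1 of 1.96 ± 1.00 (SD, n = 2). Eif5a2 was at 4.49 and 2.94 and Eif5a, the general form of this hypusine-bearing factor, at 2.19 and 2.06. Gspt1 was at 2.87 and 2.55 and Gspt2 at 1.14 and 2.19, and their partner Etf1 at 0.09 and 0.35. The scaffold Eif4g3 was at 1.63 and 1.42, Eif4g1 at 1.04 and 0.71 and Eif4g2 at 0.55 and 0.54. Copies of similar sequence such as these, or Eif3j1 and Eif3j2 with transcripts of 2413 and 2409 bases, may share reads, so their split is uncertain.

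Control sperm differed from control testes in 8 of the 25 factors that passed the filter of 1 FPKM in 2 samples. Eif6 was higher in sperm, and Eif4a2, Eif5b, Eif5a2, Eef1d, Eif3a, Eif3j2 and Eif4g3 were lower. Calls required an adjusted p under 0.05 in the quasi-likelihood test of edgeR with Benjamini-Hochberg adjustment over all features and a change of more than 2-fold, and 21.9% of all features tested in this comparison were called. The median log2 fold change of sperm over testes was -1.58 over the 25 factors and -1.24 over all features. With the 2 genes at 0 in sperm set at their bounds, the median of the factors was -1.04. No such bounds were set over all features, so -1.04 has no like value beside it.

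Eif6 was higher by 4.28 ± 1.33 on the log2 scale (adjusted p = 0.0252), where ± is a standard error worked back from the edgeR test. Eif4a2 was at 4.29, 0 and 5.37 FPKM in control sperm 2 to 4, under both testes values, and fell by 3.37 ± 1.04 on the log2 scale (edgeR, adjusted p = 0.0243). In control sperm 1, which the test did not use, Eif4a2 was at 15.05 FPKM. Eif5b was at 3.75, 0 and 3.91 FPKM in control sperm 2 to 4 and at 6.96 in control sperm 1, and fell by 2.75 ± 0.86 (edgeR, adjusted p = 0.0265). For both genes all 4 sperm pools lay below both testes samples. The Eif5b gene (chr1:37998010-38055579) overlaps Rev1 by 2794 bases, and Rev1 was at 0 to 1.27 FPKM in all samples.

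The other 5 calls rest on next to no reads in sperm, and all 5 genes passed the filter through testes alone. Eif5a2, Eef1d and Eif3a had about 1 count each over control sperm 2 to 4, against 102, 126 and 77 in control testes. Relative to all counts, Eif5a2 was 36.0-fold higher in testes (95% exact binomial interval 6.32 to 1437), Eef1d 44.5-fold (7.84 to 1771) and Eif3a, the largest subunit of eIF3, 27.2-fold (4.74 to 1088), intervals that cover counting error only. Their adjusted p in edgeR was 0.0472, 0.0309 and 0.0472. Eif4g3 was at 0 in all 4 control sperm pools, which makes it at least 6.12-fold lower than in testes at a floor of 3 counts over control sperm 2 to 4, and Eif3j2 likewise at least 2.06-fold lower (edgeR, adjusted p = 0.0472 for both).

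Eef2kmt did not pass in this comparison, with a log2 fold change of 1.06 ± 0.77 (edgeR, adjusted p = 0.322), although its samples did not overlap. Eef1a1 had 2 counts over control sperm 2 to 4 and 87 in control testes, a 15.4-fold difference (4.13 to 129, same interval) with an adjusted p of 0.0639 in edgeR. Counted by FPKM alone, 2 factors had every sperm value of pools 2 to 4 above both testes values (Eef2kmt and Eif6), as had 3.26% of all known mRNA genes listed. The opposite order held for 30 of 61 factors, and for 40.8% of known mRNA genes. No eIF2, eIF2B or eIF2 kinase gene passed the filter, so their absence from the calls says nothing about them. The count of 8 calls fell to 0 without control sperm 4 or without control testes 2, to 1 without control testes 1 and to 4 without control sperm 2. It was 0 with no filter on low values and 2 among factors with at least 10 counts in 2 samples.

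The promoters of 4 of these genes are shown because Eif4a2, Eif5b and Eif5a2 were lower and Eef2kmt higher in sperm. They hold 250 bases before and 50 after the transcription start in RefSeq's GRCm38.p6 annotation, 5′ to 3′ on the gene's strand, at chr16:23107218-23107517 (+) for Eif4a2, chr1:37997760-37998059 (+) for Eif5b, chr3:28781027-28781326 (+) for Eif5a2 and chr16:5255907-5256206 (-) for Eef2kmt. Capitals mark matches, on either strand, to the GC box of Sp1 (GGGCGG), to a CCAAT box, to the TATA box spelled TATAAA or to the CREB factor site TGACGTCA.
Eif4a2: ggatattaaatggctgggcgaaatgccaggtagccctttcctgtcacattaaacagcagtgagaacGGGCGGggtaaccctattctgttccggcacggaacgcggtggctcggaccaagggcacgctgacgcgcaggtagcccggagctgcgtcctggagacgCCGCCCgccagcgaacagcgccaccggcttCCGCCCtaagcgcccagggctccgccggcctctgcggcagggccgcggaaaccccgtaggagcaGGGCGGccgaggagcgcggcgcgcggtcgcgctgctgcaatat
Eif5b: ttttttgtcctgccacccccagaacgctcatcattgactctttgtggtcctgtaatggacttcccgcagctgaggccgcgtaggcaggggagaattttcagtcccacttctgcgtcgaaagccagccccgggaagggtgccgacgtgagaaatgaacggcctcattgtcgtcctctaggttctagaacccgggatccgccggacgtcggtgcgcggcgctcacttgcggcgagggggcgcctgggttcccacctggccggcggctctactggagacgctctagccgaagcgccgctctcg
Eif5a2: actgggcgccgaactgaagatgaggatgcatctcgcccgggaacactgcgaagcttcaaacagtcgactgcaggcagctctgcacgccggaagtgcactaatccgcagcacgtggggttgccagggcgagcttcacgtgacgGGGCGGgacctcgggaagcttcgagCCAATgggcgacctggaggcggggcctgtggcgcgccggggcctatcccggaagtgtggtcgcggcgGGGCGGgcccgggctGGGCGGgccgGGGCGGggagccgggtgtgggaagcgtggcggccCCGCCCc
Eef2kmt: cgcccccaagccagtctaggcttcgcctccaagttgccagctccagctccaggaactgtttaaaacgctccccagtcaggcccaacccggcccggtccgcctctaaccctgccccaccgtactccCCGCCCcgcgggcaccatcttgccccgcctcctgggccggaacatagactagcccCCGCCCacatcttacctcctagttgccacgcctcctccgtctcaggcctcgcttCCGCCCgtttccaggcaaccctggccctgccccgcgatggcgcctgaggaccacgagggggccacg
In this order the promoters held 4, 0, 5 and 3 matches to GGGCGG and none to the TATA box or the CREB site, and Eif5a2 alone held a CCAAT box. GC content was 67.7%, 62.7%, 71.7% and 68.3%. Of the 12 factors called between sperm and testes in control or cadmium mice, 9 had an entry in the table. Eif5b and Eif4g3, both lower in sperm, had no GC box, and the other 7 had between 1 and 5. Of 62 promoters of 47 factors in the table, 69.4% held the GC box, 24.2% the CCAAT box, 8.06% the TATA box and 1.61% the CREB site. The shares over all 32851 promoters of this length were 35.7%, 37.4%, 13.6% and 1.79%. These matches are a description of sequence, and the table had no entry for Eif6 or Eef1d.

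**Figure D3:**
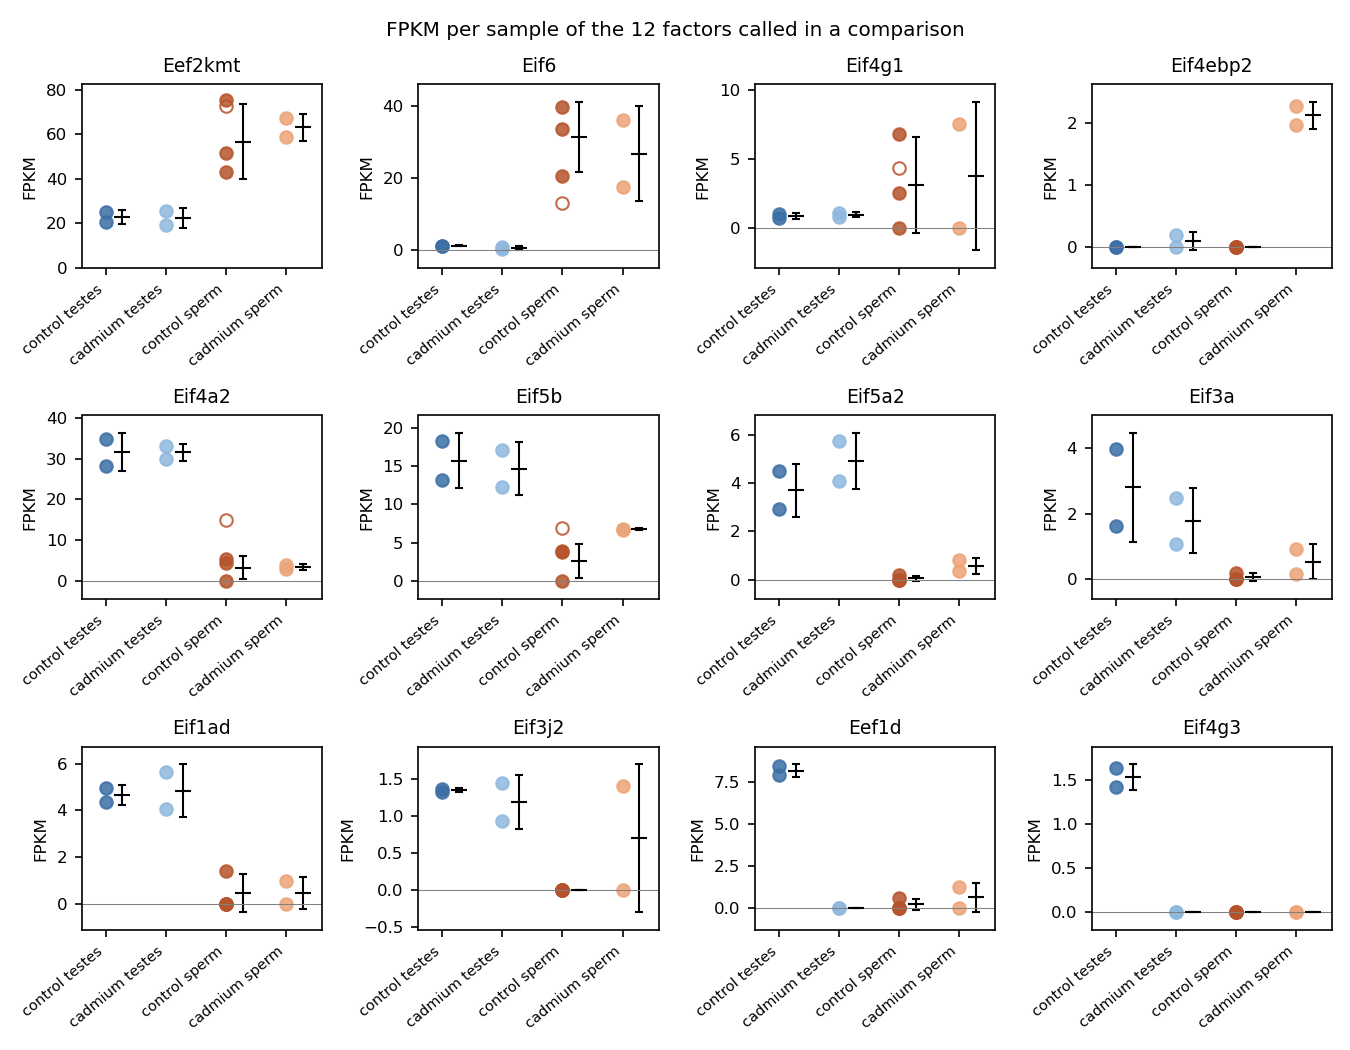
FPKM of the 12 translation factors called in at least 1 comparison, with 1 point per sample and a black mark for the mean ± SD of each group. The open point is control sperm 1, which the tests and means leave out. Eef2kmt and Eif6 are higher in every sperm sample, Eif4a2, Eif5b and Eif5a2 lower, and Eef1d and Eif4g3 are at 0 in both cadmium testes samples.

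Cadmium sperm differed from cadmium testes in 7 of 25 factors tested, in samples that the control comparison did not use. Eef2kmt, Eif6, Eif4g1 and Eif4ebp2 were higher in sperm and Eif4a2, Eif5a2 and Eif1ad lower (edgeR, adjusted p under 0.05), and 31.7% of all features tested were called here. The median log2 fold change was -0.71 over the 25 factors and -0.30 over all features.

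Eif6 was higher by 5.59 ± 0.77 on the log2 scale (edgeR, adjusted p = 2.91e-11) and Eef2kmt by 1.72 ± 0.55 (edgeR, adjusted p = 0.00821). Eif4a2 was at 3.93 and 2.90 FPKM in cadmium sperm and at 30.02 and 33.07 in cadmium testes, a fall by 2.93 ± 0.62 (edgeR, adjusted p = 2.75e-05). Eif5a2 was at 0.35 and 0.80 against 5.73 and 4.09 FPKM and fell by 2.78 ± 0.75 (edgeR, adjusted p = 0.00154). The groups did not overlap for any of these 4 genes. Here Eif6 was under 1 FPKM in both testes samples and Eif5a2 in both sperm samples. Each of them thus passed the filter through its higher group alone.

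Eif1ad, named for its likeness to eIF1A, was at 0 and 0.97 FPKM in cadmium sperm and at 5.64 and 4.05 in cadmium testes (edgeR, adjusted p = 0.0123). Its 3 counts in sperm against 66 in testes give a 9.54-fold difference relative to all counts (95% exact binomial interval 3.13 to 47.5). Eif4ebp2, a repressor that binds Eif4e, had 4 and 5 counts in cadmium sperm and 1 and 0 in cadmium testes (edgeR, adjusted p = 0.00614), a ratio of 20.7 with an interval of 2.87 to 909. It was at 0 in all 6 control samples. Eif4ebp2 likewise passed the filter through sperm alone and Eif1ad through testes alone. With no filter on low values Eif6, Eif4a2, Eif5a2, Eif1ad and Eif4ebp2 were each still called, and Eef2kmt and Eif4g1 were not. Eef2kmt was also not called with limma on log2(FPKM + 1) or log2(FPKM + 0.1), nor in 1 model with 4 groups. It was still called with DESeq2 and with the replicate number as a block. With 1 cadmium sperm sample left out, Eif6 and Eif4ebp2 no longer passed the filter. Eif4g1, the main scaffold that joins Eif4e to eIF4A, was called higher (log2 fold change 2.03 ± 0.67; edgeR, adjusted p = 0.0111) on 47 counts in cadmium sperm 1 and none in cadmium sperm 2, so its sperm values lay on both sides of the testes values of 0.85 and 1.10 FPKM. On the log2(FPKM + 0.1) scale its difference changed sign, to -0.29.

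By FPKM alone, 5 of 57 factors listed had both cadmium sperm values above both testes values and 29 had both below. The same was true of 16.7% and 34.4% of known mRNA genes. Without cadmium testes 1 the count of calls was 2, and without cadmium testes 2 or cadmium sperm 1 it was 3.

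Side by side, the control and cadmium comparisons called 3 factors in both (Eif6 higher, Eif4a2 and Eif5a2 lower), which is 37.5% of the control calls and 42.9% of the cadmium calls. Over all features the shares were 56.4% and 37.0%. Of 21 factors tested in both, 17 had a fold change of the same sign, where 79.8% of all 21284 features tested in both did. The other 4 were Eif3h, Eef1g, Eif4enif1 and Eif5. None of those 4 was called in either comparison. Eif5b, Eif3a and Eif3j2 were called in control mice only. In cadmium mice Eif5b was at 6.70 and 6.84 FPKM in sperm and 12.24 and 17.11 in testes, with a log2 fold change of -0.91 ± 0.54 (edgeR, adjusted p = 0.186). Whether the comparisons differ for a gene is tested by the difference of the cadmium effects below.

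**Figure D4:**
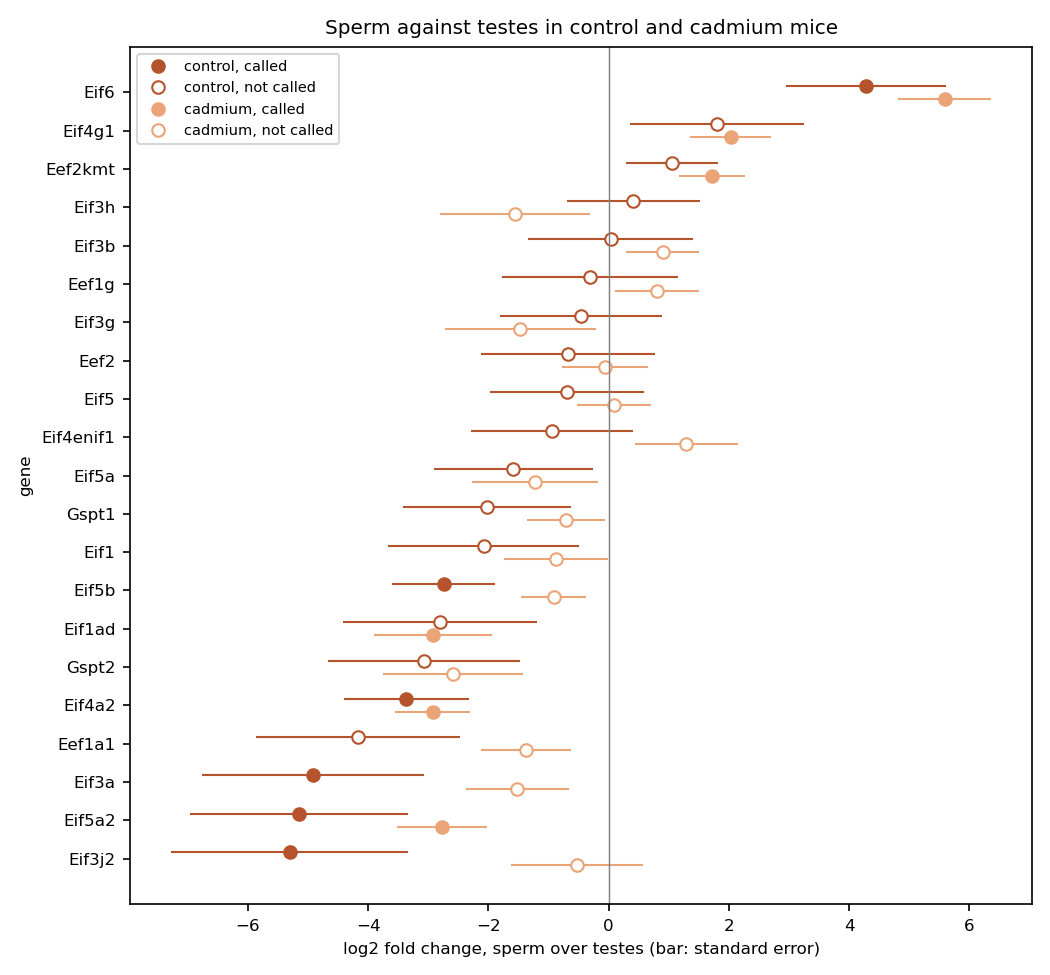
Log2 fold change of sperm over testes for the 21 translation factors tested in both control (dark) and cadmium (light) mice, with bars for the standard error worked back from the edgeR test. Filled points were called. Eif6 lies at 4.28 and 5.59, Eif4a2 at -3.37 and -2.93 and Eif5a2 at -5.15 and -2.78.

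Between cadmium and control testes, 1 factor of 31 tested was called, Eef1d, where 0.015% of all features (4 of 26721) were called. Control testes held 64 and 62 counts of Eef1d (7.91 and 8.45 FPKM) and neither cadmium testes sample held any, which were of similar depth. At a floor of 3 counts over the 2 cadmium samples it was at least 42.6-fold lower (edgeR, adjusted p = 0.00636). All of these reads were assigned to the 2855-base transcript NM_029663, and the 3 shorter Eef1d transcripts, of 1635 to 1638 bases, were at 0 in all 4 testes samples. The few Eef1d counts of sperm lay on the shorter transcripts, with none on NM_029663. Comparisons of Eef1d between sperm and testes thus set different transcripts of the gene side by side.

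Eif4g3 showed the same picture at lower counts. Control testes held 29 and 23 counts of it (1.63 and 1.42 FPKM), all in NM_001256195, and cadmium testes none, which makes it at least 17.6-fold lower, with an adjusted p of 0.0974 in edgeR. With the replicate number as a block its adjusted p in edgeR was 1.52e-10, and with no filter on low values it was 6.69e-05. The labels do not say what the sample numbers mean, so the block rests on no known design and its p-value on very few samples. Both Eef1d and Eif4g3 passed the filter through control testes alone. Among 8568 transcripts of any kind with at least 20 counts in both control testes samples, 10 were at 0 in both cadmium samples, and these 2 were among them. In the other direction it was 11 of 8688 transcripts, none of them a factor. Within one gene, reads can pass from one transcript model to another between libraries. The predicted mRNA gene MXLOC_064263 had 53.0 and 30.8 counts on one transcript in control testes and 58.9 and 38.8 on another in cadmium testes. The part that such assignment had in the values of Eef1d and Eif4g3 was not tested.

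No other factor passed the test. Eif4a2 was at 30.02 and 33.07 FPKM in cadmium testes (log2 fold change 0.06 ± 0.48), Eif5b at 12.24 and 17.11 (-0.03 ± 0.51), Eef2kmt at 19.08 and 25.51 (0.03 ± 0.49) and Eef1a1 at 5.53 and 9.95 (-0.15 ± 0.56). Eef2, the translocase of elongation, was at 3.07 and 3.51 FPKM in control and 2.06 and 4.10 in cadmium testes (0.01 ± 0.59). Each had an adjusted p of 1.00 in edgeR. By FPKM alone, 11 of the 63 factors had both cadmium values above both control values, as had 9.25% of known mRNA genes, and 10 had both below, as had 11.1%. Among the first were Eif5a, at 2.19 and 2.06 FPKM in control and 3.67 and 3.81 in cadmium testes (log2 fold change 0.85 ± 0.70), and Eef1g, another part of the eEF1 exchange factor, at 2.17 and 2.53 against 4.16 and 5.59 (1.16 ± 0.66), each with an adjusted p of 1.00 in edgeR. Of the 31 factors 21 had a positive and 10 a negative fold change, with a median of 0.06 against 0.02 over all features. Eif6 had 5 counts in both control samples and 4 and 1 in cadmium samples, and Eif4b had 15 and 21 against 5 and 9 (log2 fold change -1.31 ± 0.73), neither past the threshold. Eif2s3y had 1 and 11 counts in control samples against 0 and 1 with cadmium, too few to pass the filter. The Eef1d call could not be made without either control testes sample, since only 1 sample then reached 1 FPKM. It was also lost with limma on log2(FPKM + 1) (adjusted p = 1.00) and when only known mRNA genes were fitted (adjusted p = 0.153).

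**Figure D5:**
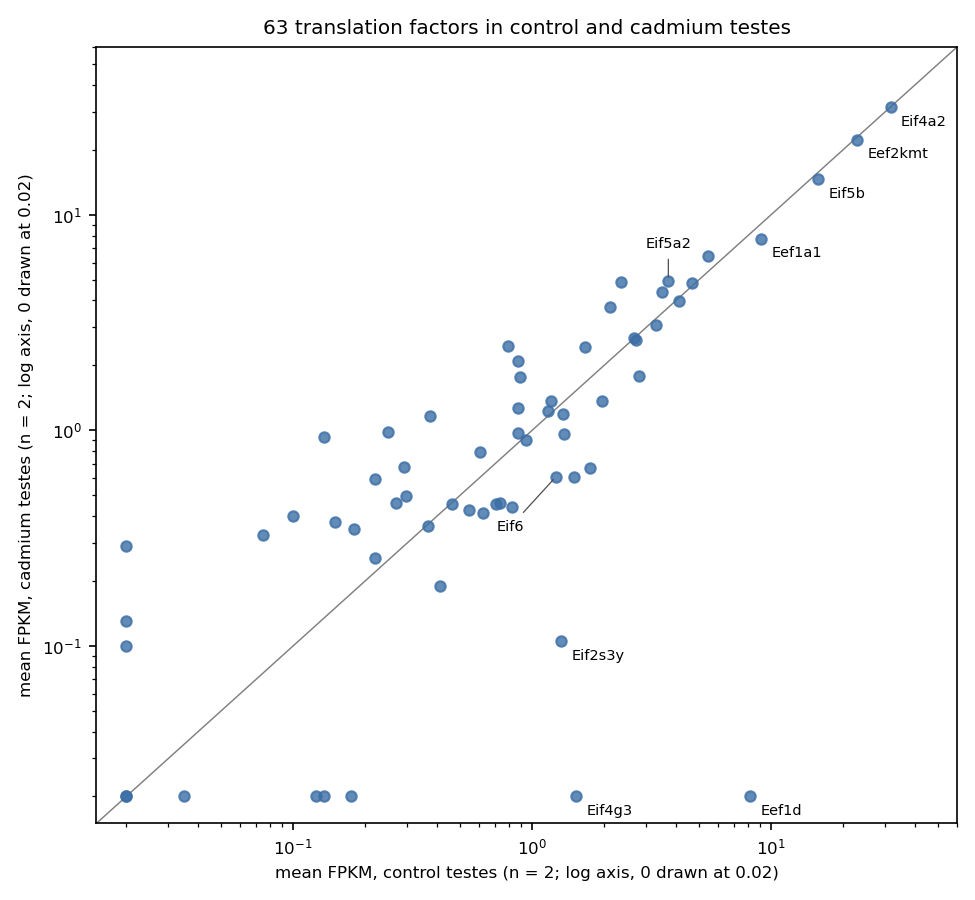
Mean FPKM of the 63 translation factors in cadmium testes against control testes (n = 2 each) on log axes, with means of 0 drawn at 0.02 and a grey line of equality. The most abundant factors lie near the line, while Eef1d and Eif4g3 lie at 0 in cadmium testes.

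In sperm, no factor was called between cadmium and control among 21 tested (edgeR), and 1 had an unadjusted p under 0.05. DESeq2 and limma also called none, and 0.0678% of all features were called. The factor was Eif4ebp2, at 1.97 and 2.27 FPKM in cadmium sperm and at 0 in all 4 control pools (edgeR, adjusted p = 0.553). Eef2kmt had a log2 fold change of 0.23 ± 0.59 and Eif6 of -0.13 ± 0.86. Eef1a1 was at 2.46 and 2.72 FPKM in cadmium sperm and at 0, 1.08, 0 and 0 in control sperm 1 to 4 (2.19 ± 1.94 without pool 1; edgeR, adjusted p = 1.00). By FPKM alone, 7 of 43 factors had both cadmium values above all of control sperm 2 to 4, as had 17.3% of known mRNA genes, and none had both below, against 0.706%. Standard errors near 2 for genes of few counts mean that changes of several fold would not have been detectable at this depth. The cadmium sperm samples held more counts than each control pool, and they listed 31 and 29 factors against 6 to 31.

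A single model of 9 samples tested whether the cadmium effect differed between sperm and testes. None of 34 factors passed (edgeR), with 1 at an unadjusted p under 0.05, and none did with DESeq2 or limma, while 0.0396% of all features were called. That factor was Eef1d, which had 64 and 62 counts in control testes, none in cadmium testes, 0 to 1.01 in control sperm and 2.30 and 0 in cadmium sperm (edgeR, adjusted p = 0.751). For Eif5b the difference was 1.33 ± 1.07 and for Eif4a2 -0.08 ± 1.28.

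Other genes of cytoplasmic translation were looked at as a list of 31, of which 30 were listed in some sample. In control mice 15 were tested between sperm and testes, and 1 was higher and 5 lower in sperm, where 21.9% of all features tested were called. Ppp1r15b, which brings phosphatase 1 to eIF2 alpha and so reverses the action of the kinases, was the one higher gene. It was at 91.07, 78.04 and 87.80 FPKM in control sperm 2 to 4, at 118.02 in control sperm 1 and at 1.13 and 1.45 in control testes. It was at 94.17 and 95.35 in cadmium sperm and 1.77 and 2.32 in cadmium testes. The log2 fold change was 5.80 ± 0.78 in control (edgeR, adjusted p = 2.05e-08) and 5.74 ± 0.70 in cadmium mice (edgeR, adjusted p = 3.50e-14). The lower genes were Pabpc4, Paip2 and Paip2b (poly(A)-binding protein and its inhibitors), Denr (ribosome recycling and re-initiation) and Rptor (a part of the mTOR complex that phosphorylates Eif4ebp proteins). The first 4 of them were at 0 in all control sperm pools and Rptor was under 1 FPKM there. All 5 thus passed the filter through testes alone (edgeR, adjusted p = 0.0472 for each). In cadmium mice Denr and Rptor were again lower and Larp1, besides Ppp1r15b, was higher, with 16 tested and 31.7% of all features called. Denr again passed the filter through testes alone. No gene of the list was called for cadmium in testes (17 tested), in sperm (9 tested) or for the difference between them (18 tested). Of 8 mitochondrial translation factors only Mtif3 passed the filter, at 4.46 to 14.81 FPKM in control sperm 2 to 4 and 8.32 and 10.18 in control testes, and it was called in no comparison.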

How the data were processed

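Ribosomal RNA had been removed by RNase H from sperm and testes RNA of 10 samples before Illumina sequencing. The methods name SOAPaligner/SOAP2 and the submitters' processing notes HISAT and mm10. The counting tool and annotation are not given in the sources used here. The authors deposited, for each sample, the transcripts above 0 with an expected count, which is not normalized, and an FPKM that they scaled to transcript length and library size. Unlisted transcripts were taken as 0. Values were summed by gene within each class of transcript, and 32 transcripts whose gene name differed between tables (dates in place of names, no translation factor) were given one name.

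For each comparison, edgeR 4.0.16 (R 4.3.3; TMM, quasi-likelihood F test) was fitted to rounded expected counts of the features that reached 1 FPKM in 2 or more of its samples, with Benjamini-Hochberg adjustment. By the study's methods the control sperm samples were separate pools of mice, and the control testes samples came from those same mice. Which sperm pools and testes samples shared mice is not given, and the main tests treated all samples as independent. For the cadmium samples the pooling is not given in the sources used here, so p-values measure only the spread between these samples. On simulated data with the dispersion fitted to each comparison, 4-fold changes were recovered for 0% and 16-fold changes for 16.0% of 200 features between control sperm and testes (dispersion 0.507, 24236 and 24189 features). For cadmium in testes the shares were 0% and 72.0% (dispersion 0.153, 26628 and 26629 features). At a dispersion of 0.05, quieter than these data, 4-fold changes were recovered for 88.0% (24292 features) and 54.0% (26655 features). Only 200 features were changed in each simulation, and all features shared 1 dispersion. In the real comparison of control sperm and testes 21.9% of features were called, so the recovered shares do not measure its power. DESeq2 1.42.0 and limma 3.58.1 on log2(FPKM + 1) or log2(FPKM + 0.1) were alternatives. Python 3.11.15, numpy 2.4.6, pandas 2.3.3 and matplotlib 3.10.9 were used for the rest. Named genes were the called factors (up to 5 in each direction), the 10 most abundant in control testes and in control sperm 2 to 4, and a list of well-known factors, with further genes named where a count or range called for it, after their values were seen. The factors and the lists were chosen with earlier results of these data known. Gene positions and promoters come from RefSeq's GRCm38.p6 annotation.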

Additional observations from a re-analysis of the deposited data

Results flagged for a closer look

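Among 27 values looked at in the 4 control sperm pools (FPKM of the named factors and their summed share), 15 had 1 pool so far from the others that the gap, divided by the range of the 4 pools, passed Dixon's 95% limit for 4 samples. The limit is set to mark about 1 in 20 groups of normally distributed values, a rate that does not hold for counts near 0. For 13 of the 15 the factor was listed in 1 pool and at 0 in the other 3, which gives the largest possible ratio, 1.0, at very few counts. Control sperm 2, the pool with the most counts, held 10 of these values: Eef1a1 at 1.08 FPKM, Eef1d at 0.59, Eif1ad at 1.40, Eif2s1 at 0.91, Eif3a at 0.20, Eif4e3 at 0.38, Eif4g2 at 0.49, Eif5a at 1.43, Eif5a2 at 0.19 and Gspt2 at 0.38. Eef2k was at 0.94 FPKM in control sperm 4 alone. Eif4a3, a helicase of the exon junction complex, was at 13.27 FPKM (8 counts) in control sperm 1 alone, and Eif4e2 was at 2.12 FPKM in that pool alone. For Eif3g, at 5.73 FPKM in control sperm 4 and 0.92 or less in the others, the ratio was 0.839, and for Eif5, at 7.20 FPKM in control sperm 3 and 1.55 to 2.48 in the others, it was 0.835. The part that depth had in these values was not tested.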

How the results depend on the processing

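The 8 calls between control sperm and testes became 0 with no filter on low values, 2 with at least 10 counts in 2 samples, 0 with the replicate block, and 0 to 8 when a sample was left out. The 7 calls in cadmium mice became 4 with DESeq2, with limma on log2(FPKM + 0.1) and in 1 model with 4 groups, and 2 to 5 with a sample left out. The single call for cadmium in testes became 2 with no filter and with the replicate block, 0 with limma on either scale or with known mRNA genes only, and 0 to 1 with a sample left out. The counts of 0 for cadmium in sperm and for the difference between tissues were 0 under every alternative run. With only called factors of at least 20 counts in a sample, an alternative chosen after seeing the data, 7 and 6 calls were left between sperm and testes in control and cadmium mice. The labels do not say what the sample numbers mean. Deviations of same-numbered samples correlated at 0.61 between control and cadmium testes, at 0.11 and 0.12 between testes and cadmium sperm and at -0.08 to 0.00 with control sperm, a hint from the data and not from the design. In testes the block took the calls over all features from 4 to 72 and added Eif4g3. It left 5 calls in cadmium mice.

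Of 240 values of single genes under alternatives, 160 kept their sign and side of the threshold, 71 lost the call, 8 gained it and 1 changed sign, Eif4g1 in cadmium mice at -0.29 on the log2(FPKM + 0.1) scale. As a share of all FPKM the factors made up 0.0170% in control sperm 2 to 4, 0.0220% in control testes, 0.0214% in cadmium sperm and 0.0213% in cadmium testes. As a share of mRNA counts they made up 0.287% in control sperm 2 to 4, 0.310% in cadmium sperm, 0.403% in control and 0.384% in cadmium testes. DESeq2 called 1134 of 3315 features higher in control sperm, against 1020 of 5353 with edgeR. With DESeq2's size factors the median change of all features for cadmium in sperm was 0.27 in place of 0.43, and with known mRNA genes only that of mRNA genes between control sperm and testes was -1.39 in place of -1.22. Depth is one limit: 31 of 63 factors had under 10 counts in every sample, and 2 samples in a group leave their spread poorly known.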

Other observations

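The eIF3 complex and the exchange factor eIF2B were listed nearly whole in testes. All 5 eIF2B genes were listed in both control testes samples and 12 and 14 of the 14 eIF3 genes. The 5 eIF2B genes held 12 and 17 counts in all in control testes 1 and 2, and Eif3j1 was listed at 0.05 counts in control testes 2. In control sperm 1 to 4, 0, 1, 0 and 0 of the eIF2B genes and 1, 7, 0 and 2 of the eIF3 genes were listed. Of all known mRNA genes, the same pools listed 2025, 6733, 1552 and 3316, against 12250 and 11537 in control testes. The part of depth in these numbers of listed genes was not tested, so they show no loss of either complex in sperm. Added together, the eIF3 genes gave control testes 14.82 and 17.37 FPKM and cadmium testes 15.20 and 19.55, against 3.21, 14.58, 0 and 11.75 in control sperm and 9.27 and 12.46 in cadmium sperm. Eif3b, a scaffold subunit, made up 5.46 and 6.02 FPKM of the sums in control sperm 2 and 4. The highest sperm sums came close to those of testes from fewer genes. The control sperm pools spread from 0 to 14.58 FPKM and the control testes samples from 14.82 to 17.37. The cadmium sperm samples (9.27 and 12.46) lay nearer each other than the cadmium testes samples (15.20 and 19.55).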
